A study of Drosophila melanogaster with 4 samples.

Results

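The centromere-side end of chromosome arm 2L of Drosophila melanogaster and the heterochromatic sequence 2LHet were examined here in windows of 1 kb for trimethylation of histone H3 on lysine 9 (H3K9me3). The arm end was the last 911.544 kb of 2L, up to its final base at 23011544, and 2LHet was taken whole, from 1 to 368872, with the lengths given in the file headers on FlyBase release 5. The windows were selected by position alone: 912 lay on the arm end and 369 on 2LHet, so 1281 of the 139719 windows on the 13 sequences that carried clusters. The outer limit was set with the extent of the dense block on 2L already known, so the block's presence there is not a finding.

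The mark was mapped by chromatin immunoprecipitation and sequencing (ChIP-seq) in nuclei of heads sieved from wild-type adult flies of the Oregon-R strain, staged only as mixed adults, with no mutant allele or treatment named. Chromatin was fixed with formaldehyde and sonicated. The labels give no sex. There were 2 ChIP libraries and 2 input libraries, and nothing in the labels says that the replicates came from separate cages or collections, so their spread may be no more than technical. Heads hold neurons, glia, fat body and other cells, and the lists cannot tell more cells carrying the mark from more mark per cell. The data are 3 lists of enriched clusters, 1 for each ChIP library and 1 for the series, called the combined set here; the input libraries were not analysed here. A cluster is an interval that the authors' caller found enriched, with a score whose scale is not stated. Read depth is unknown.

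H3K9me3 is written in flies by the methyltransferases Su(var)3-9 and SetDB1 (eggless) and is bound by heterochromatin protein 1 (HP1a), which compacts chromatin and helps to keep transposable elements silent. Chromatin near the centromeres is rich in satellite repeats and transposon remnants, yet it also holds active genes. On 2L these include light (lt), needed for the traffic of pigment granules, and concertina (cta), which encodes a G protein alpha subunit used in gastrulation. light is known for losing expression when a rearrangement moves it away from heterochromatin. In the RefSeq table, whose assembly is not that of the lists, lt is followed toward the centromere by cta, Cht10 and Spf45 and preceded by CG17715, CG40439 and CG40006. That table shares no build with the lists, so no gene was assigned to a window.

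The mark covered most of both sequences, and the arm end more fully than 2LHet. Clusters covered 78.0% of the arm end in replicate 1 and 81.2% in replicate 2, or 79.6% ± 2.24 (SD, n = 2 ChIP libraries, as for every SD below). On 2LHet they covered 61.6% in replicate 1 and 65.0% in replicate 2, or 63.3% ± 2.42. Both replicates were higher on the arm end, and the values of the sequences did not overlap. The arm end exceeded 2LHet by 16.5 percentage points in replicate 1 and by 16.2 in replicate 2, a mean of 16.3 ± 0.18. The combined set gave 86.8% on the arm end and 70.4% on 2LHet, a difference of 16.4 points. With 2 libraries the exact tests over samples cannot reach 0.05: permuting 2 values against 2 cannot give a p below 0.333, and flipping the signs of the 2 within-library differences cannot give one below 0.5. Windows and clusters of a library are not replicates, so values are given with their spread and no p.

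Single windows were mostly either full or empty. This follows largely from the window size. Every replicate cluster here was wider than a window, so a window could be covered in part only where a cluster ended inside it. A window was called when at least 50% of it lay inside clusters in both replicates. This held for 703 of the 912 windows of the arm end (77.1%) and for 224 of the 369 on 2LHet (60.7%), against 14.1% of all windows on the 13 sequences. On the arm end 643 windows (70.5%) were fully covered in both replicates, and on 2LHet 181 (49.1%), against 11.1% over all windows. At the other end, 117 windows of the arm end (12.8%) and 104 of 2LHet (28.2%) held no cluster in either replicate, where all windows gave 77.5%. Windows covered in part made up 11.4% of the arm end in replicate 1 and 10.7% in replicate 2, and 16.0% and 12.5% of 2LHet. In the called, full and empty classes alike 2LHet lay between the arm end and the background.

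**Figure D1:**
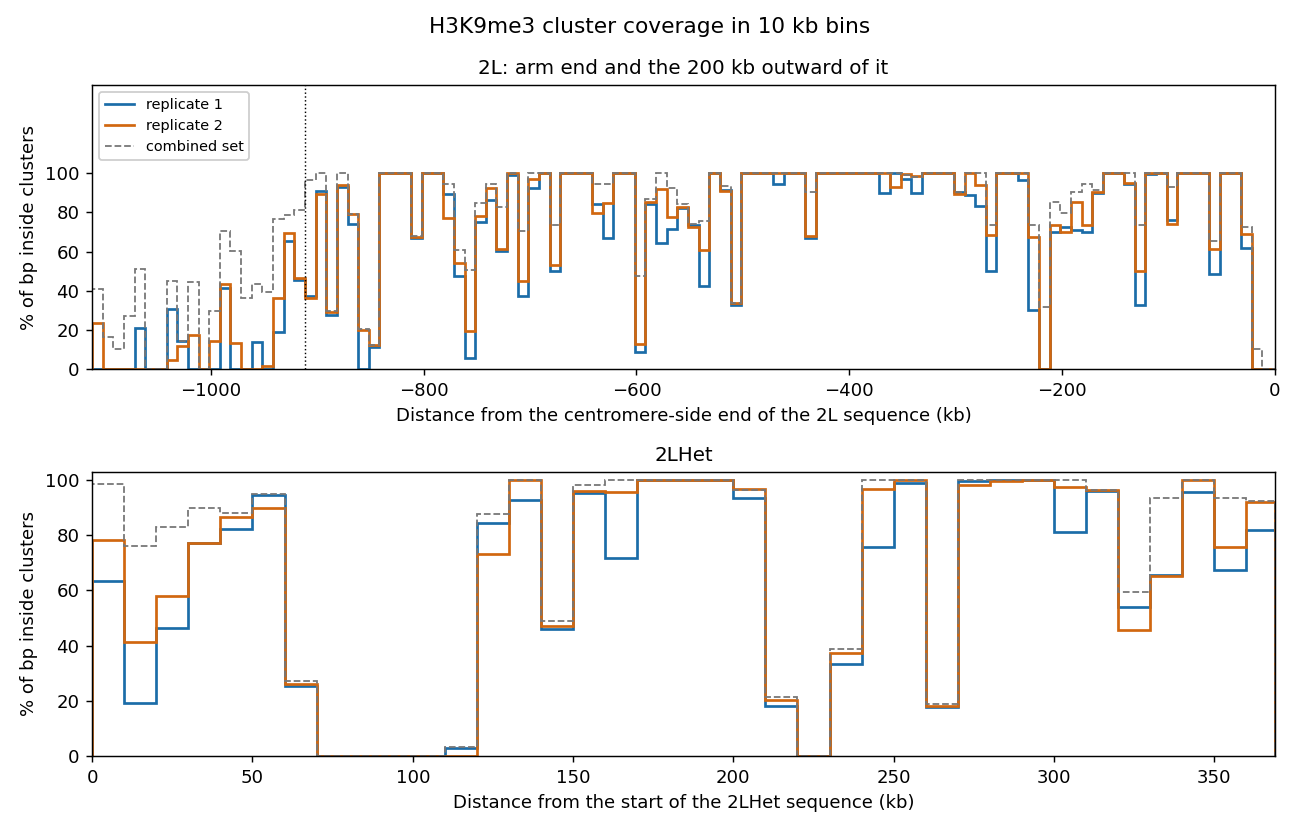
Percent of base pairs inside clusters in bins of 10 kb along 2L (top; x axis in kb from the centromere-side end of the sequence, with the start of the arm end dotted and the 200 kb outward of it shown) and along 2LHet (bottom; kb from its start), for replicate 1, replicate 2 and the combined set. The replicates trace the same steep dips, and coverage of 2LHet falls to 0% in both over its longest break.

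The cluster lists of the replicates shared most of their covered sequence in both places. On the arm end 77.1% of the sequence lay inside clusters of both replicates, 5.15% inside those of only 1, and 17.8% inside neither, a Jaccard index (shared over total covered sequence) of 0.937. On 2LHet the shares were 59.3%, 8.04% and 32.7%, with an index of 0.881. By window, 44 of the arm end were called in a single replicate, 35 of them in replicate 2. On 2LHet 29 windows were, 23 of them in replicate 2. Replicate 2 thus covered more in both places. Of the 56 arm-end clusters of replicate 1, 54 overlapped a replicate 2 cluster by at least 1 bp, as did 45 of the 52 in the other direction. On 2LHet all 33 clusters of replicate 1 and 25 of the 27 of replicate 2 were found again. Where clusters cover most of a sequence, overlap by 1 bp and a high index follow in part from coverage alone. These values therefore do not by themselves measure how well the replicates match. On 2L outside the arm end, where mean coverage was 5.30%, the index was 0.497. Of the 9 arm-end clusters missing from the other replicate none was wider than 2030 bp. Not all were weak: their scores ran from 0.61 to 0.64 in replicate 1 and from 0.40 to 2.67 in replicate 2. The latter was the highest score of replicate 2 on the arm end.

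The outer edge of the block was spread out in coverage. Over the 100 kb just outward of the arm end, coverage was 18.6% in replicate 1 and 22.6% in replicate 2, with 7 and 8 clusters of median score 0.69 and 0.65, none wider than 6661 bp. Successive 50 kb stretches from 21900001 were 4.49% ± 0.32, 7.97% ± 1.54, 11.4% ± 4.26 and 29.8% ± 1.47 covered, and the first 50 kb of the arm end, up to 22150000, was 65.2% ± 0.73 covered. The edge was placed where a single step best divided 2L into a sparse outer side and a dense inner side by least squares. It fell at 22078001 in replicate 1 and at 22106001 in replicate 2, while the combined set put it at 22070001. The replicates had a mean of 22092001 and an SD of 19799 bp. In each list the cluster at the edge was small and weak: replicate 1 had 3446 bp with a score of 0.63, replicate 2 had 2030 bp with 0.66, and the combined set had 3961 bp with 0.58.

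Farther in, the arm end was divided at its first wide cluster, and scores and coverage were higher from there onward. The first cluster of at least 20 kb within the arm end, a limit chosen after seeing the data, began at 22168853 in replicate 1 and at 22168751 in replicate 2; the combined set had it at 22168754. The SD of the replicates there was 72.1 bp. Clusters of that width also lay farther out on 2L, the widest being 26335 bp in replicate 1 and 27972 bp in replicate 2. Outward of it the arm end held 8 clusters in replicate 1 and 7 in replicate 2. Their median scores were 0.76 and 0.80, and coverage was 47.0% and 50.8%. Their widths, up to 8107 and 9258 bp, were held under 20 kb by the rule itself. The rule also set the 15.7 kb break described below on the outer side and the wide cluster on the inner side. The difference in coverage thus follows in part from the choice. Low scores went with narrow clusters in these lists, so the difference in score is not independent of the rule either. From that cluster inward there were 48 and 45 clusters, with median scores of 1.46 and 1.67 and coverage of 80.6% and 83.7%. The first wide cluster itself was 33484 bp in replicate 1, with a score of 1.41, and 33603 bp in replicate 2, with a score of 1.60. Just outward of it lay a break of 15.7 kb from 22153092 to 22168750, into which the combined set put no cluster. A 2025 bp cluster of replicate 2 (22151067 to 22153091, score 0.60) bounds that break; replicate 1 lacked that cluster and had a single gap of 21455 bp there.

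**Figure D2:**
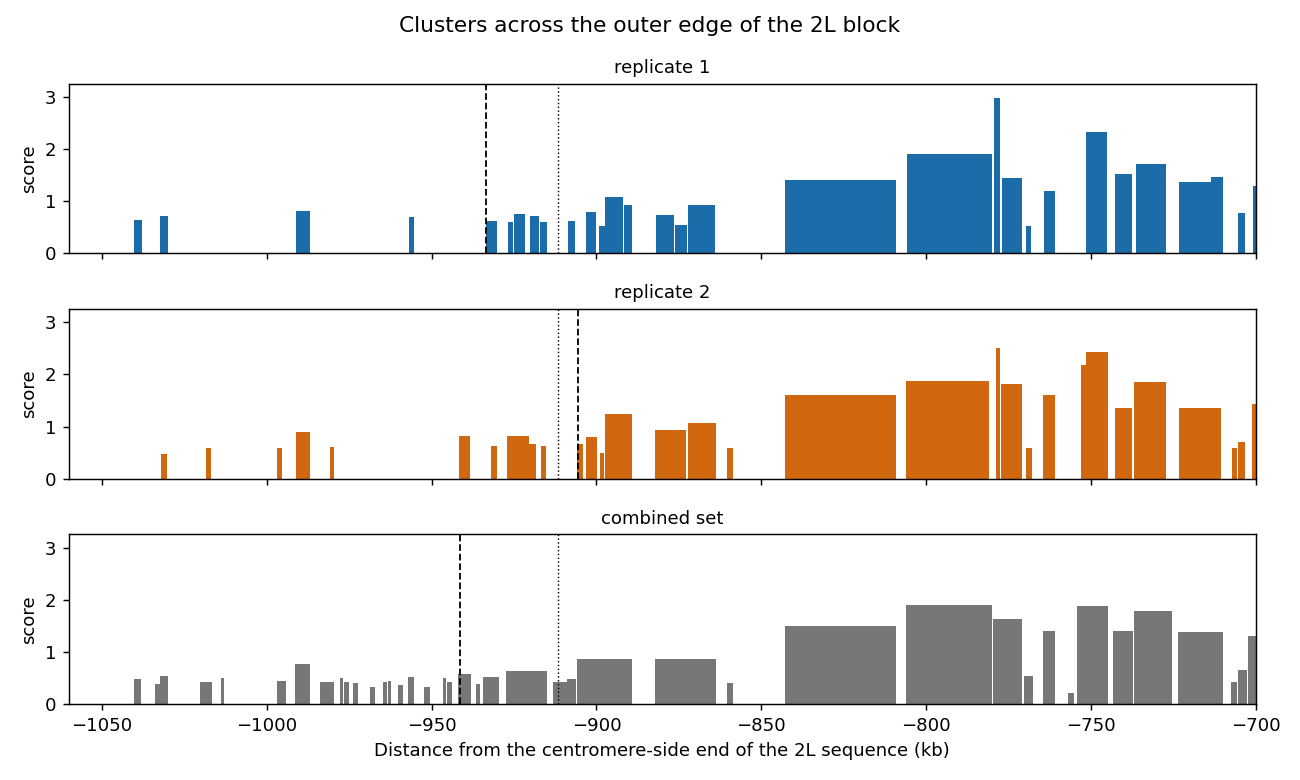
Clusters around the outer edge of the 2L block, drawn to scale as bars whose width is the cluster's extent and whose height is the authors' score, in replicate 1, replicate 2 and the combined set (x axis in kb from the centromere-side end of 2L). The dashed line marks the edge of best fit in each list and the dotted line the start of the arm end. Low bars are followed at the same place in all 3 lists by a wide bar, which scored 1.41 in replicate 1. The bars before it are narrow in the replicates but reach 18532 bp in the combined set.

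Inward of the edge coverage was uneven. In successive 100 kb bins of the arm end it was 64.8% ± 1.87, 74.1% ± 1.45, 84.5% ± 1.96, 74.7% ± 3.98, 89.8% ± 0.51, 98.4% ± 1.02, 78.0% ± 5.67, 82.0% ± 2.69 and 79.6% ± 1.26. The fullest bin was the sixth, 22600001 to 22700000, at 97.6% in replicate 1 and 99.1% in replicate 2, and coverage was lower on both sides of it. It did not climb steadily toward the centromere. In bins of 10 kb, 36 of 92 were fully covered in both replicates and 4 held no cluster in either. On 2LHet the bins from 1, 100001, 200001 and 300001 were 43.3% ± 3.47, 70.3% ± 1.29, 65.2% ± 2.10 and 79.5% ± 3.02 covered, the last being 68.9 kb long.

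Runs of successive called windows were longer on the arm end. It held 42 runs, with a median of 10.5 windows and a longest of 67, and 2LHet held 27, with a median of 5 and a longest of 40. The longest run of the arm end depended on the rule, at 147 kb when 25% of a window sufficed, 204 kb in the combined set and 235 kb in 5 kb windows; on 2LHet it was 60 kb in replicate 2 alone, in the combined set and in 5 kb windows. Of the called windows, 67.6% on the arm end and 42.4% on 2LHet stood in runs of at least 20, of which there were 13 and 3. The N50, the run length at or above which 50% of called windows stand, was 33 windows on the arm end and 13 on 2LHet. The 5 longest runs of the arm end were 22577001 to 22644000, 22507001 to 22573000, 22671001 to 22711000, 22841001 to 22881000 and 22339001 to 22378000, of 67, 66, 40, 40 and 39 windows. On 2LHet they were 169001 to 209000, 270001 to 305000, 242001 to 262000, 132001 to 145000 and 307001 to 320000, of 40, 35, 20, 13 and 13 windows. Each of these 10 runs was at least 96.6% covered as the mean of the replicates.

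The middle of the arm end held the longest stretch without a break of 2 kb or more. It ran for 166 kb, from 22576433 to 22742001, where replicate 1 had 7 clusters, replicate 2 had 5 and the combined set 3. It was 95.1% covered in replicate 1 and 98.2% in replicate 2, and the combined set covered 99.2%. Across a break of 3099 bp it adjoined the second longest, of 66.7 kb from 22506628 to 22573333, which replicate 2 called as 1 cluster and replicate 1 as 2. On 2LHet the longest such stretches were 59.5 kb, from 150173 to 209660, and 53.9 kb, from 269934 to 323788, covered to 96.6% ± 3.29 and 94.7% ± 0.48.

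Within these stretches the number of clusters depended on small gaps. Replicate 1 had 57 gaps on the arm end and replicate 2 had 53, of which 29 in each were of 2 kb or more. The gaps under 2 kb held 20.7 kb of sequence in replicate 1 and 16.5 kb in replicate 2, of 200 and 171 kb in all gaps. Of the replicate 1 gaps, 14 lay wholly inside clusters of replicate 2, and none of these was over 1597 bp; 5 of the replicate 2 gaps lay inside clusters of replicate 1. On 2LHet the counts were 11 of 33 and 3 of 27. The widest cluster of the arm end shows the effect: the combined set called 93.5 kb from 22576422 to 22669919 as 1 cluster (score 1.68), replicate 1 split the stretch into 2 clusters after 22643670, and replicate 2 did so after 22658785. The median cluster width was 6922 bp on the arm end and 3346 bp on 2LHet in replicate 1. In replicate 2 it was 7996 and 5409 bp.

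**Figure D3:**
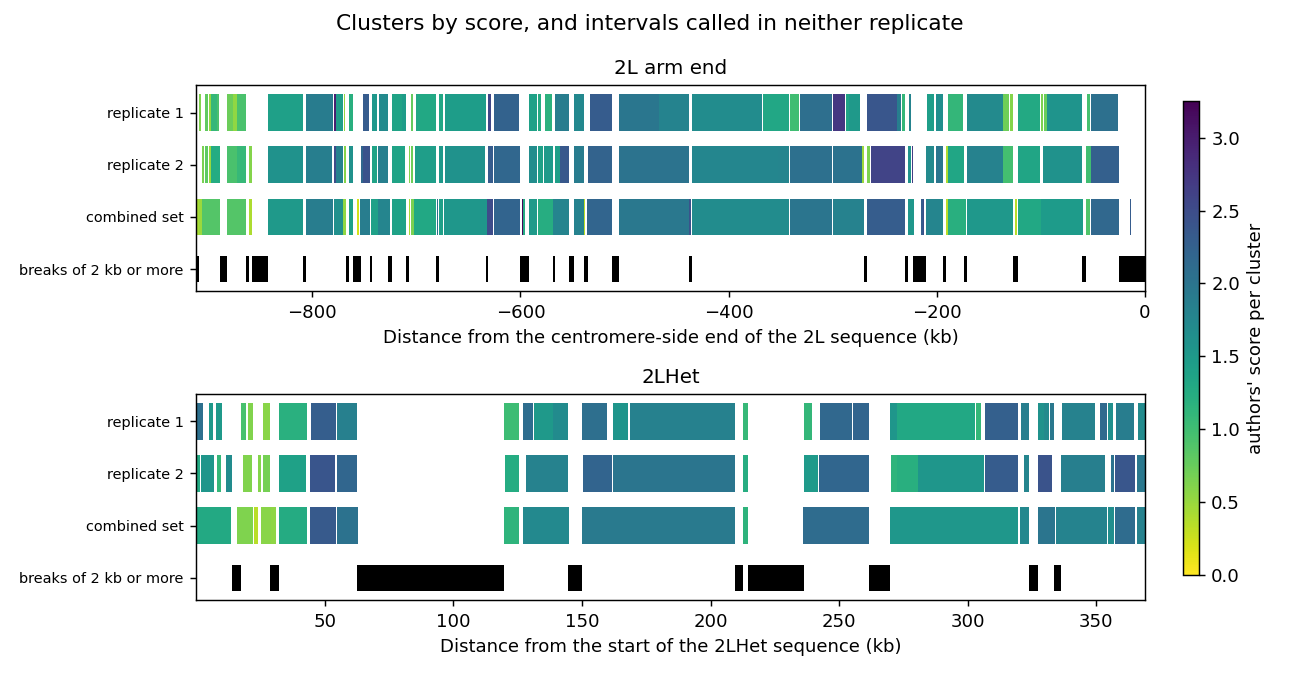
Clusters of the 3 lists, coloured by the authors' score, along the arm end (top; kb from the centromere-side end of 2L) and 2LHet (bottom; kb from its start), with black bars for the breaks of 2 kb or more that neither replicate called. Weak clusters lie at the outer end of the arm end and farther in, and on 2LHet near its start but beyond stronger ones. On 2LHet 2 black bars take up most of the break sequence.

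Breaks, here intervals of at least 2 kb inside no cluster of either replicate, came at similar frequency on both sequences, and the longest single break was on 2LHet. The arm end had 26, or 2.85 per 100 kb, with a median of 3491 bp, and 2LHet had 9, or 2.44 per 100 kb, with a median of 3789 bp. They took 15.8% of the arm end and 29.5% of 2LHet. The 2 longest held 28.0% of the break sequence of the arm end but 72.3% of that of 2LHet. On 2LHet these were 57.1 kb, from 62628 to 119699, and 21.6 kb, from 214653 to 236261; then followed 8131 bp (261803 to 269933), 5475 bp (144698 to 150172) and 3789 bp (13706 to 17494). On the arm end the longest was the last 24.6 kb of the sequence, from 22986909 to 23011544. It was followed by the 15.7 kb beside the first wide cluster, 12.5 kb (22789183 to 22801699), 8683 bp (22410862 to 22419544) and 8005 bp (22250596 to 22258600). A break of 2919 bp, ending at 22102919, is cut short by the outer limit of the windows.

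When the 2 longest breaks of each sequence were left out, a comparison chosen after seeing the data, 871 of 912 kb of the arm end and 290 of 369 kb of 2LHet remained. Since the sequence left out was chosen for having no cluster and was the larger share of 2LHet, a smaller difference followed from the choice, and its size is given as a description. The arm end was then 81.7% covered in replicate 1 and 85.0% in replicate 2, and 2LHet 78.3% and 82.6%. The difference fell from 16.3 to 2.85 ± 0.74 percentage points, 3.37 in replicate 1 and 2.33 in replicate 2, and was 1.27 in the combined set. The arm end was still the higher within each replicate. Leaving out the longest break of each alone gave a difference of 6.96 ± 0.57 points. Assembly gaps and sequence to which short reads cannot be assigned were not examined here. Their part in the breaks was not tested, and from the lists they and sequence without the mark cannot be told apart.

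**Figure D4:**
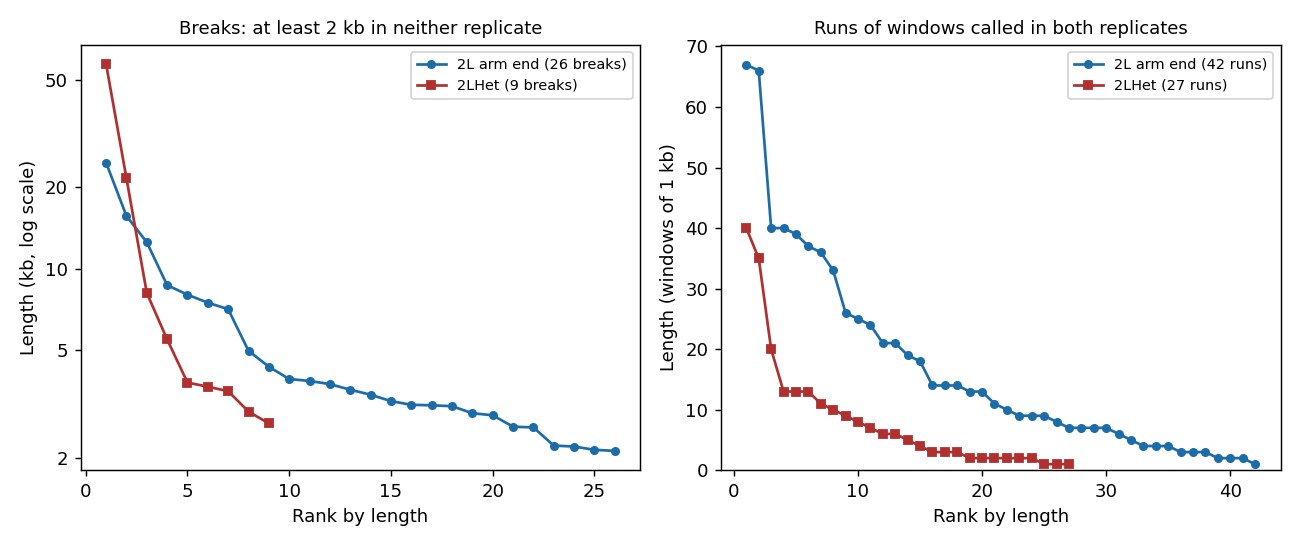
Lengths of breaks in kb on a log axis (left) and of runs of called windows (right), each ranked from the longest, for the arm end and 2LHet. The arm end is the longer sequence and has more of both, 26 against 9 breaks and 42 against 27 runs, so values at the same rank are not comparable; the longest break, of 57.1 kb, is on 2LHet.

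The ends of many breaks lay at nearly the same base in both replicates. Over 50 break ends on the arm end the ends of the replicates' own gaps differed by a median of 247 bp, and 35 lay within 500 bp. On 2LHet the median was 140 bp over 18 ends, of which 14 lay within 500 bp. The gap of the longest break on 2LHet measured 57145 bp by replicate 1 and 57629 bp by replicate 2; that of the next measured 21689 and 21609 bp. On the arm end the gap at 22499149 measured 7550 and 7523 bp. The largest differences, of 17786 and 5694 bp, came on either side of the 2025 bp cluster that stood in replicate 2 only.

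The 2 sequences ended differently. The last cluster of the arm end, at 22959662 to 22986190 in replicate 1 and 22959791 to 22986908 in replicate 2, was wide and had scores of 2.07 and 2.27. Beyond it the last 25.4 kb and 24.6 kb of the sequence held no cluster. The combined set placed 1 cluster of 1042 bp there, from 22997721 to 22998762, and left the final 12.8 kb empty. On 2LHet the first cluster began within 237 bp of the start in every list, and the last one reached the final base. Where 2LHet lies relative to the end of 2L, and in which direction it runs, is not given in the sources used here.

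Scores within the block were high and varied from cluster to cluster. Averaged over covered bases, the score was 1.66 in replicate 1 and 1.78 in replicate 2 on the arm end, and 1.71 and 1.85 on 2LHet. It was higher on 2LHet within each replicate, and in the combined set by 1.71 against 1.67. The gap was small: the values of the sequences overlapped, with means of 1.72 ± 0.09 on the arm end and 1.78 ± 0.09 on 2LHet. The arm end also includes its outermost 50 kb, which scored 0.91 ± 0.12. On 2L outside the arm end the score was 0.76 and 0.80. Where both replicates had a cluster, the score of replicate 2 was the higher over 79.0% of the arm-end bases and 87.0% of those of 2LHet, by a mean of 0.13 and 0.14. By 100 kb bin the mean of the replicates rose from 1.19 ± 0.11 in the outermost bin to 1.74 ± 0.03 in the next. It was highest, at 2.15 ± 0.03, from 22700001 to 22800000, and fell to 1.49 ± 0.10 in the bin after that. The bin with the highest score was thus not the one with the fullest coverage, which scored 1.73 ± 0.17.

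Weak clusters, those scoring under 1, held a small part of the covered sequence. On the arm end there were 14 of 56 in replicate 1 and 13 of 52 in replicate 2, holding 6.41% and 5.86% of the covered bases, with median widths of 2722 and 2030 bp against 9663 and 9494 bp for the others. Outward of the first wide cluster lay 7 of the 14 and 5 of the 13, and the rest lay farther in. Inside the block 4 places were weak in both replicates: at 22241986 to 22243313, with scores of 0.53 and 0.59, at 22306085 to 22308247 (0.77 in replicate 1, 0.71 in replicate 2), at 22875490 to 22884887 and at 22956026 to 22958944 (0.96 and 0.99). The place from 22875490 was called as 2 clusters of 0.72 and 0.60 in replicate 1 and as a single cluster of 9595 bp with 0.97 in replicate 2. On 2LHet 3 of 33 and 3 of 27 clusters were weak, and all of them lay between 17495 and 28768.

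The combined set filled some breaks and left others empty. Of the 26 breaks of the arm end it covered under 5% of 7 and at least 25% of 13, and 22.5% of their sequence in all. On 2LHet it covered under 5% of 6 of the 9 and 6.12% of their sequence, with 0.265% of the longest and 0.884% of the next. Of the 50 clusters of the combined set on the arm end, 11 were found in neither replicate, and all were narrow, at 1001 to 4071 bp. Of these 6 scored from 2.10 to 3.20, 4 scored 0.42 or less, and 1 scored 1.27. Those 6 included the highest score of the combined set on the arm end, at 22412796 to 22413796 (1001 bp), and the third highest, at 22798421 to 22799627 (1207 bp, 2.48), both inside breaks. The second highest, at 22379516 to 22385177 (score 2.51), was 62.5% ± 16.6 covered by the replicates. On 2LHet 1 of 20 combined clusters was found in neither replicate, with a score of 0.55, and the highest score, 2.34, belonged to a cluster of 10.3 kb (44100 to 54373) that the replicates covered to 94.3% ± 1.36. It was followed by 2.11 at 357282 to 365280 and at 236123 to 261807, which the replicates covered to 92.0% ± 11.1 and 92.9% ± 7.33.

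The remaining long clusters of the combined set were covered for the most part by the replicates. On the arm end the next longest after the 93.5 kb cluster measured 66.9 kb (22506632 to 22573560, score 1.95) and 44.4 kb (22840880 to 22885263, score 1.52) and were covered, in that order, to 99.0% ± 0.87 and 96.1% ± 2.97. On 2LHet the longest was 59.5 kb (150168 to 209655, score 1.92), the second 49.7 kb (269934 to 319653, score 1.53) and the third 25.7 kb, the one from 236123 to 261807 with a score of 2.11. The second joined 4 clusters of replicate 1 whose scores ran from 1.08 to 2.27. In order of length the replicates covered these 3 clusters of 2LHet to 96.5% ± 3.29, 97.5% ± 2.01 and 92.9% ± 7.33. The third was 87.8% covered in replicate 1 and 98.1% in replicate 2.

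Coverage of the arm end lay below that of the same length of 3L and near that of 2R, while 2LHet lay below 3 of the 4 other heterochromatic sequences compared. YHet was not among those compared. The centromere-side stretch of equal length was 86.2% ± 1.52 covered on 3L and 81.1% ± 2.08 on 2R, with breaks on 9.63% and 14.2% of it and N50 runs of 33 and 32 windows. Among the heterochromatic sequences, coverage was 80.0% ± 1.76 on 3LHet, 73.4% ± 1.85 on 3RHet, 68.0% ± 1.37 on 2RHet and 40.7% ± 1.28 on XHet, so 2LHet lay between 2RHet and XHet. The replicates of 2LHet and 2RHet did not overlap. Breaks took 29.5% of 2LHet and 27.7% of 2RHet, but on 2RHet, 3LHet and 3RHet the 2 longest held 20.0% to 24.6% of the break sequence, and on XHet 37.7%, against 72.3% on 2LHet. That share depends on the number of breaks, which was 9 on 2LHet, 15 on XHet and 59 to 79 on the others. 2LHet is the shortest of these but XHet, at 369 kb against 2518 kb or more. Its N50 run of 13 windows compares with 28, 29 and 28 on 2RHet, 3LHet and 3RHet, and with 19 on XHet. These differences were not tested.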

How the data were processed

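The authors deposited lists of enriched clusters on FlyBase release 5, per the file headers. The submitters' processing notes name Bowtie 0.12.7 as a tool. Per the labels, each input library served 1 replicate's list. Caller, threshold and the making of the combined set: not given in the sources used here. The authors' deposited score served to describe, rank or filter clusters. A caller that joins or cuts at small gaps changes cluster counts and widths more than coverage. The files hold no read counts, so no interval was drawn.

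Positions are 1-based. On the 2 sequences 3 clusters ended 196 to 660 bp beyond the sequence and were trimmed. Percent covered, windows, runs, breaks and the least-squares edge were computed with Python 3.11.15 and numpy 2.4.6, figures with matplotlib 3.10.9; the code was checked on simulated lists. Positions named are the 5 longest runs and breaks, the 3 longest and 3 highest-scoring combined clusters of each sequence, and the edges; others were named after their values were seen. The region, windows and rules were chosen with earlier results of these data known. Alternatives were score and width minima, joining, the combined set, single replicates, other windows and thresholds.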

Additional observations from a re-analysis of the deposited data

How the results depend on the processing

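Of 94 recomputed values 59 stayed within the replicate SD, or within 1.5 times for a count, and 35 moved further. Where the result was a mean of the 2 replicates, leaving out 1 of them always moves it by less than their SD. Those values were thus among the 59 by arithmetic and are no check. Only the differences in coverage between the sequences could reverse in sign, and none of these did. The arm end exceeded 2LHet in coverage under every setting run. Its lead was 15.1 points with clusters scoring under their list's median left out, 20.8 with clusters of at least 3 kb, 16.1 with clusters up to 1 kb apart joined and 18.2 without the outer 100 kb; each moved past the small SD of 0.18. Coverage of the arm end was 76.8% with the score minimum and 77.0% with the width minimum; 2LHet was 56.2% with the latter. In the combined set they were 86.8% and 70.4%, with 86.6% and 71.0% of windows called, an edge at 22070001 and longest runs of 204 and 60 kb.

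Called windows of the arm end were 73.6% with the score minimum and 74.5% with the width minimum, and those of 2LHet 52.0% with the latter. At a limit of 25% of the window, 79.6% were called on the arm end; at 75%, 74.6% and 54.5% of 2LHet. In 5 kb windows 66.2% of 2LHet was called. The longest run of the arm end was 147 kb at the 25% limit and 235 kb in 5 kb windows, where that of 2LHet was 60 kb, so run lengths depend on window and limit. The edge moved to 22141501 with the score minimum, 22118501 with the width minimum and 22123501 when searched only 100 kb outward. Breaks of at least 5 kb numbered 7 on the arm end and 4 on 2LHet. The cause of these moves was not tested.

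Without either replicate in turn, called windows ran from 78.1% to 80.9% on the arm end and from 62.3% to 66.9% on 2LHet, and longest runs from 68 to 82 kb and from 40 to 60 kb. The 60 kb run is that of replicate 2 alone. Leaving out replicates moved coverage from 78.0% to 81.2% and from 61.6% to 65.0%, the lead from 16.2 to 16.5 points, the edge from 22078001 to 22106001 and break counts to 29 and 13. Outside the longest break alone the lead was 6.96 points, and outside the 2 longest, in the combined set, 1.27. No test between groups of samples was made, paired or not. Differences between the sequences were taken within each replicate throughout. Unknown depth limits all calls of weak clusters.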

Other observations

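Of the 11 combined clusters of the arm end found in neither replicate, the 6 that scored above 2 carried scores that recur in the combined set: each score was shared with 8 to 12 clusters in the whole list, itself included. The clusters at 22796047 to 22798019 and at 22997721 to 22998762, of 1973 and 1042 bp, both scored 2.31. Of the 4 that scored 0.42 or less, each had a score found 1 time only. The score of 1.27 was found 2 times, and that of the 2LHet cluster found in neither replicate, 0.55, 6 times. Repeated scores occurred in every list. On the arm end 8 of 56 clusters of replicate 1, 10 of 52 of replicate 2 and 8 of 50 of the combined set had one. On 2LHet these counts were 8 of 33, 5 of 27 and 3 of 20. The share over all clusters of a list is not given here. The scale of the score is not stated, and the reason for the repeats was not tested.

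Both sequences have a place where weak clusters gather. For the arm end it is the 68.9 kb outward of the first wide cluster in replicate 1. That part held 7 of the 14 weak clusters of replicate 1, and the outer part in replicate 2 held 5 of 13. The rest lay farther in. For 2LHet it is the stretch from 17495 to 28768. This stretch is near the start of 2LHet but not at it, as stronger clusters of both replicates lie nearer the start. On 2LHet the bin from 10001 to 20000 was covered to 19.4% in replicate 1 and 41.4% in replicate 2, against 76.2% when the combined set was used.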
